A study of Mus musculus with 24 samples.

Results

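The nuclear-encoded respiratory chain genes described here are the subunit genes of mitochondrial complexes I to V whose symbols begin with Nduf and a subunit letter, Uqcr, Cox4 to Cox8 or Atp5, or are Sdha to Sdhd. By this rule 58 of the 18470 gene symbols in the count table belong to the module. They comprise 26 genes of complex I, 3 of complex II, 2 of complex III, 12 of complex IV and 15 of complex V. Ndufa4 and Ndufa4l2, which carry complex I names, were placed in complex IV, where their products are now known to sit. Of the 58 members, 6 had no count in any library (Atp5l-ps2, Cox4i2, Cox7b2, Ndufa11b, Ndufa4l2 and Ndufb4c), and the other 52 all passed the filter on low counts.

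The respiratory chain lies in the inner mitochondrial membrane. Complex I (NADH dehydrogenase) and complex II (succinate dehydrogenase, which is also an enzyme of the tricarboxylic acid cycle) pass electrons to ubiquinone. Complex III hands them to cytochrome c and complex IV to oxygen, and complex V, the ATP synthase, uses the proton gradient to make ATP. Most subunits are encoded in the nucleus, and the remainder, the 13 encoded by mitochondrial DNA, were not analysed here. Lymphocytes at rest, memory B cells among them, are known to rely largely on this pathway for ATP.

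PolyA RNA was measured in bulk in memory B cells (labelled csMBC) of mice sensitised with intranasal house dust mite and exposed to it again 6 weeks later. The cells were sorted into circulating cells and, from lung, CCR6+CD69+ and CCR6-CD69- cells, which makes 3 populations. Each was taken from SCAP cKO mice, labelled SCAP fl/fl hCD20-TamCre, and from WT mice, labelled SCAP +/+ hCD20-TamCre. Both genotypes therefore carry the tamoxifen-inducible Cre under human CD20 control, which is active in B cells, and SCAP, the sterol-sensing escort protein of the SREBP transcription factors, was deleted before the recall response. The 6 groups had 4 libraries each, 2 from batch 2 and 2 from batch 1. The labels do not say what a batch was, and they give lung B cell as the source of every library, the circulating ones included. They do not say that replicates came from separate animals, and a p-value here reflects the spread among these libraries and no more.

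Total counts ran from 129025 to 8566243 per library, and 12 to 52 of the 58 members had a count. A limit of 3 counts corresponded to 23.3 CPM (counts scaled to a library total of 1000000) in the shallowest library, SCAP cKO CCR6-CD69- replicate 4, and to 0.350 CPM in the deepest. These limits cover counting error only. Scap itself averaged 82.7 ± 46.3 CPM in SCAP cKO and 86.6 ± 31.7 CPM in WT lung CCR6+CD69+ cells (SD, n = 4 each). It averaged 90.0 ± 64.5 CPM in SCAP cKO and 149 ± 25.02 CPM in WT lung CCR6-CD69- cells, and 223 ± 152 CPM in SCAP cKO and 104 ± 84.5 CPM in WT circulating cells. Scap passed the threshold in none of the genotype comparisons (edgeR adjusted p = 1 and 0.998 in the lung populations, in the order given, and 0.673 in circulating cells), and the deposited counts do not say whether reads came from the deleted part of the gene. The B cell genes Ms4a1 and Cd74 were present in all 6 groups, with the lowest means in the circulating ones. Cd74 averaged 8728 CPM in SCAP cKO and 10128 CPM in WT circulating libraries, against 13860 to 21058 CPM in the 4 lung groups. Ms4a1 averaged 608 and 557 CPM in circulating libraries, in the same order, against 870 to 1542 CPM in the lung groups. The natural killer gene Nkg7 averaged 817 CPM in SCAP cKO and 587 CPM in WT circulating libraries, against 2.29 to 4.91 CPM in the 4 lung groups. Macrophage genes took 4.79% of the counts of SCAP cKO CCR6-CD69- replicate 1 and 3.59% of WT CCR6-CD69- replicate 2, and at most 0.480% of any other library. In bulk RNA, fewer cells of a type and less RNA per cell cannot be told apart.

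Summed over the module, the respiratory chain genes took 0.572% of all counts in batch 2 (range 0.507 to 0.678%, n = 12) and 1.22% in batch 1 (range 0.964 to 1.57%, n = 12). No library of batch 2 reached the lowest library of batch 1. In lung CCR6+CD69+ cells the share was 0.614 and 0.546% in batch 2 and 1.10 and 1.13% in batch 1 for SCAP cKO, against 0.598 and 0.521% in batch 2 and 1.21 and 1.18% in batch 1 for WT. In lung CCR6-CD69- cells it was 0.586 and 0.508% in batch 2 and 1.22 and 1.25% in batch 1 for SCAP cKO, against 0.507 and 0.516% in batch 2 and 1.1995 and 0.964% in batch 1 for WT. In circulating cells it was 0.678 and 0.597% in batch 2 and 1.57 and 1.27% in batch 1 for SCAP cKO, against 0.632 and 0.564% in batch 2 and 1.39 and 1.09% in batch 1 for WT. The ratio of batch 2 to batch 1 lay between 0.442 and 0.519 in the 6 groups. Every comparison of genotype or population below was therefore made with batch as a term and is also given within each batch.

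**Figure D1:**
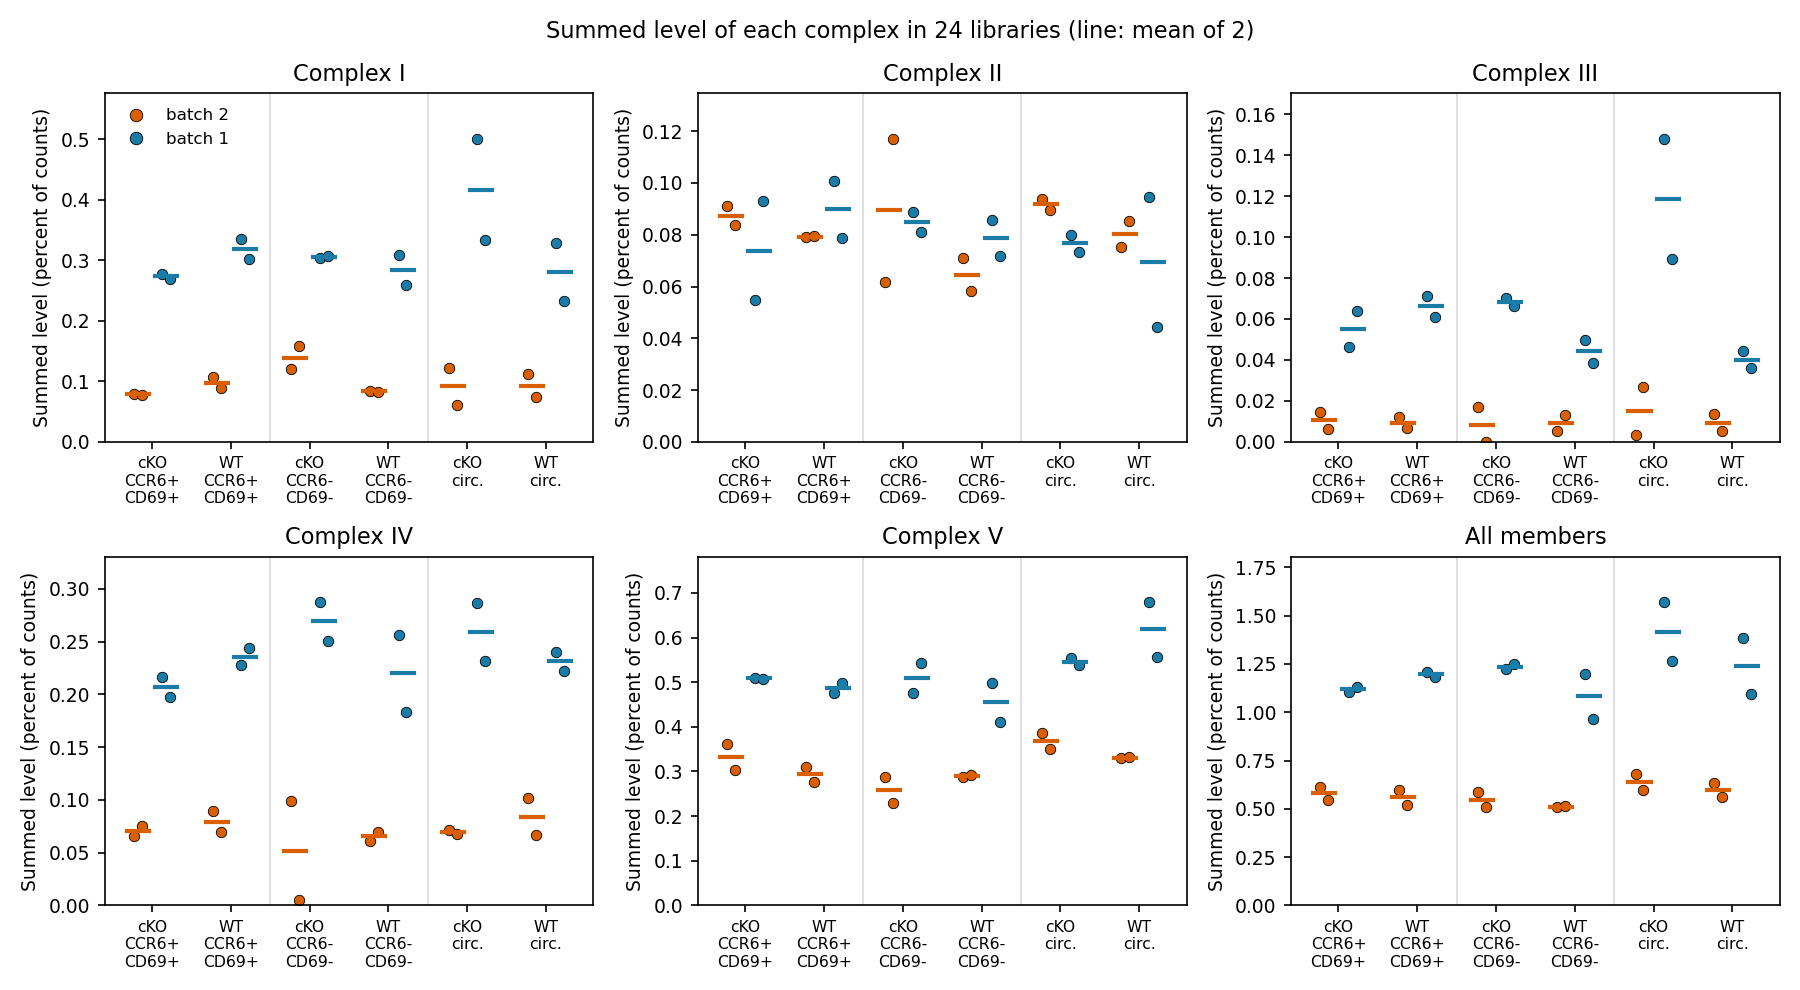
Summed level of the nuclear-encoded subunit genes of each complex in each of the 24 libraries, as percent of the library's counts, by group, coloured by batch, with a line at the mean of the 2 libraries. Batch 2 libraries lie below batch 1 libraries for the whole module (0.507 to 0.678% against 0.964 to 1.57%), while complex II overlaps between the batches.

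The summed levels of the complexes did not shift alike between batches, and their measured transcripts differed in length, as given below. Complex I took 0.0973% of counts in batch 2 (range 0.0613 to 0.158%) and 0.313% in batch 1 (0.233 to 0.500%). Complex III, represented by Uqcrh and Uqcr11, took 0.0103% in batch 2 (0 to 0.0269%) and 0.0654% in batch 1 (0.0359 to 0.148%). The ranges of the batches did not meet for either complex. Complex IV took 0.0702% in batch 2 (0.0047 to 0.102%) and 0.237% in batch 1 (0.183 to 0.287%), and complex V took 0.312% in batch 2 (0.229 to 0.387%) and 0.521% in batch 1 (0.411 to 0.679%). Complex II differed from these, with 0.0821% in batch 2 (0.0581 to 0.117%) and 0.0789% in batch 1 (0.0443 to 0.101%). Its ratio of batch 2 to batch 1 ran from 0.821 to 1.196 over the 6 groups. Most of the complex II sum was Sdha, with a mean of 641 CPM over all libraries, against 110 CPM for Sdhb and 53.5 CPM for Sdhc. Sdhb averaged 78.8 CPM in batch 2 and 142 CPM in batch 1, and Sdhc 39.3 and 67.7 CPM. Taken per group, the batches were apart in all 6 groups for complexes I, III, IV and V.

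In the fit across all genes, 35 of the 52 tested members were lower in batch 2 than in batch 1 and 0 were higher (edgeR quasi-likelihood test with Benjamini-Hochberg adjustment over 6779 genes, adjusted p under 0.05). Of all genes tested, 6.99% were called lower, 0.826% higher and 7.82% either way, so the module's share of 67.3% lay far above the background. All 52 estimates were below 0. Their median was -2.57 on the log2 scale, against -0.39 for all genes tested. Called lower were 17 of 24 genes of complex I, 0 of 3 of complex II, 2 of 2 of complex III, 7 of 9 of complex IV and 9 of 14 of complex V, with median log2 fold changes of -2.71, -1.32, -3.73, -2.76 and -2.48 in that order. DESeq2 called 40 members (12.7% of its genes) and limma voom with quality weights 43 (15.1% of all genes), again with 0 higher. Leaving out 1 library at a time, 27 of the 35 kept the call in all 24 fits.

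In complex I the largest falls were in accessory subunit genes. Ndufb3 lay at 0, 7.84 and 48.6 CPM in batch 2 (lowest, median and highest of 12 libraries) and at 56.2, 155 and 376 CPM in batch 1. The batches did not overlap, and the log2 fold change was -4.46 ± 0.652 (SE; edgeR quasi-likelihood test, Benjamini-Hochberg adjusted p = 4.64e-07). Ndufa13, also known as GRIM-19, lay at 0, 49.1 and 252 CPM in batch 2 and at 135, 293 and 715 CPM in batch 1, with overlap of the ranges and a log2 fold change of -2.80 ± 0.455 (edgeR, adjusted p = 5.69e-06). The largest estimates in the complex were those of Ndufb1 (-5.28 ± 0.991) and Ndufc1 (-5.17 ± 1.07), and 8 batch 2 libraries had no count of Ndufc1. Of the core subunits, some passed the threshold and some did not. Ndufs1, a core subunit that carries iron-sulfur clusters of the electron input arm, had a median of 82.98 CPM in batch 2 and 97.2 CPM in batch 1 (log2 fold change -0.31 ± 0.675, edgeR adjusted p = 0.86). Its mean was 131 CPM in batch 2 and 92.8 CPM in batch 1, but 75.7 CPM in batch 2 without the shallowest library, SCAP cKO CCR6-CD69- replicate 4, which had 736 CPM. Ndufs3, another core subunit, had a log2 fold change of -3.42 ± 0.875 (adjusted p = 0.00583). Reads of Ndufb4, Ndufb4b and Ndufb4c, which are near copies, could be split by the counting, so their separate values are uncertain.

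Complex II showed no member past the threshold. Sdha, the flavoprotein that oxidises succinate, lay at 483, 640.009 and 1170 CPM in batch 2 (lowest, median and highest) and at 154, 622 and 859 CPM in batch 1. These ranges overlapped, and the estimate was -0.17 ± 0.273 on the log2 scale (edgeR, adjusted p = 0.792). Sdhb, the iron-sulfur subunit, had an estimate of -1.81 ± 0.747 (adjusted p = 0.14), and Sdhc, a membrane anchor, one of -1.32. With edgeR, 1 of the 3 had an unadjusted p under 0.05, as had 19.8% of all genes. Both measured genes of complex III fell. Uqcrh, the hinge protein that contacts cytochrome c1, lay at 0, 89.3 and 205 CPM in batch 2 and at 196, 554 and 1071 CPM in batch 1 (log2 fold change -2.85 ± 0.407, edgeR adjusted p = 3.14e-07). Its ranges met at their ends. Uqcr11, a small subunit, had a log2 fold change of -4.61 ± 0.833 (adjusted p = 4.52e-05).

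In complex IV, Cox7c, a small subunit at the membrane, lay at 0, 19.9 and 54.3 CPM in batch 2 and at 137, 255 and 830 CPM in batch 1, without overlap. Its log2 fold change was -4.52 ± 0.632 (edgeR quasi-likelihood test, Benjamini-Hochberg adjusted p = 4.76e-07). Cox6b1, which joins the monomers of the complex IV dimer, lay at 0, 10.4 and 36.1 CPM in batch 2 and at 42.0, 125 and 289 CPM in batch 1, also without overlap (-3.70 ± 0.702, adjusted p = 0.000107). Cox4i1, the ubiquitous form of the regulatory subunit 4, lay at 7.75, 182 and 300.03 CPM in batch 2 and at 172, 562 and 852 CPM in batch 1 (-2.16 ± 0.359, adjusted p = 8.7e-06). The log2 fold change was -2.01 ± 0.368 for the supercomplex factor Cox7a2l (adjusted p = 5.5e-05) and -2.86 ± 0.637 for Cox5b, a subunit on the matrix side (adjusted p = 0.00119). Cox6a1 and Cox8a did not pass the threshold (-1.46 ± 0.501, adjusted p = 0.0579, and -0.72 ± 0.492, adjusted p = 0.442). The lung isoform Cox4i2 had no count in any library.

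In complex V the small subunits Atp5f1e and Atp5me did not overlap between batches. The other tested members did, among them the catalytic subunits, the inhibitor Atp5if1 and the membrane subunit Atp5mj. Atp5f1b, the catalytic beta subunit, lay at 911, 1125 and 2108 CPM in batch 2 and at 909, 1207 and 1504 CPM in batch 1 (-0.36 ± 0.226, edgeR adjusted p = 0.394). Atp5f1a, the alpha subunit beside it, lay at 140, 1100 and 1591 CPM in batch 2 and at 706, 1290 and 2300 CPM in batch 1 (-0.84 ± 0.255, adjusted p = 0.027). These 2 had the highest mean CPM of all members. The call for Atp5f1a was lost without SCAP cKO CCR6-CD69- replicate 2 (adjusted p = 0.0532), SCAP cKO circulating replicate 4 (0.054) or WT circulating replicate 1 (0.0948), and with total counts as the only scaling (0.354). Atp5f1e, the epsilon subunit of the central stalk, lay at 0, 35.0 and 116 CPM in batch 2 and at 293, 603 and 930 CPM in batch 1. Atp5me, membrane subunit e, lay at 0, 4.13 and 46.6 CPM in batch 2 and at 90.9, 196 and 866 CPM in batch 1. Neither gene overlapped between batches, and their log2 fold changes were -4.60 ± 0.454 (adjusted p = 3.41e-12) and -5.46 ± 0.676 (adjusted p = 5.84e-09). Atp5if1, the inhibitor that stops the enzyme from running backwards, fell by 3.45 ± 0.815 on the log2 scale (adjusted p = 0.00252). Of the measured forms of the rotor ring, Atp5mc3 fell by 2.52 ± 0.576 (adjusted p = 0.00165), and Atp5mc2 had an estimate of -0.85 ± 0.683 (adjusted p = 0.531).

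Over all complexes, 5 of the 52 members had ranges of 12 and 12 libraries that did not overlap (Atp5me, Atp5f1e, Cox7c, Ndufb3 and Cox6b1), all of them lower in batch 2. Over all genes tested, 1.02% were so separated. The mean CPM of 49 members was lower in batch 2, and the other 3 were Atp5f1b, Ndufs1 and Sdha. Without the shallowest library it was 50 members, since the batch 2 means of Ndufs1 (75.7 CPM) and Atp5f1b (1159 CPM) were then below those of batch 1 (92.8 and 1179 CPM), and that of Atp5pb (279 CPM) was above it (266 CPM). Scaling moved the median of all genes in this comparison, which was -0.39 with trimmed mean of M values (TMM) scaling and 0.002 with total counts. The members' median lay 2.17 below that of all genes with TMM scaling and 2.16 below it with total counts.

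**Figure D2:**
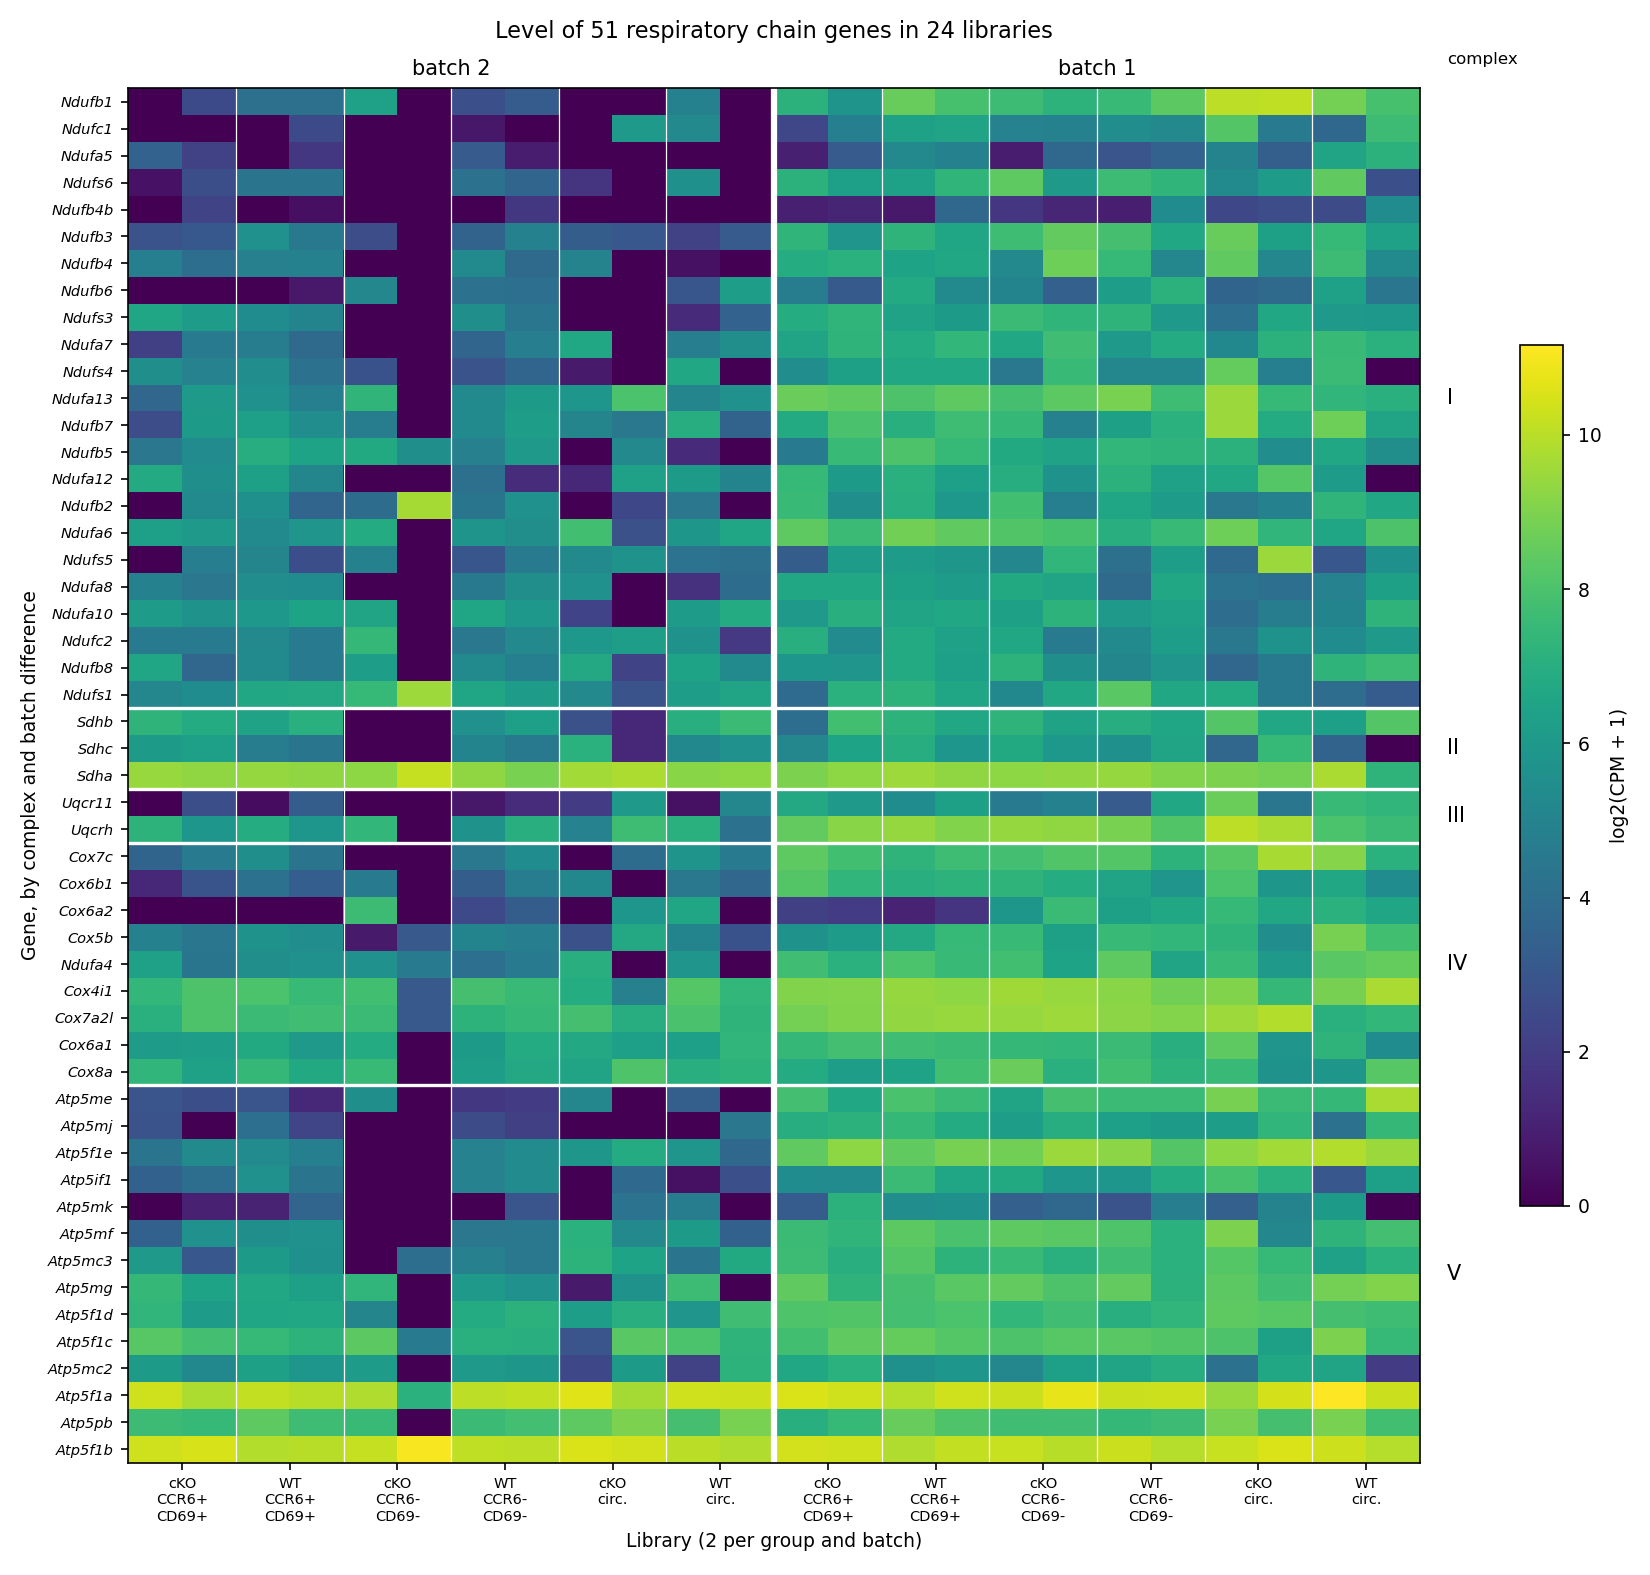
Level of 51 of the 52 tested members in each library on a log2(CPM + 1) scale, with members grouped by complex and libraries by batch, population and genotype. Batch 2, on the left, is darker (lower) over most of the members, while Atp5f1b and Sdha are high in both batches.

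Transcript length went with the shift. The members' transcripts had a median length of 763 bases, against 3078 bases for all genes tested. By complex the median was 812 bases in complex I, 2900 in complex II, 618 in complex IV and 931 in complex V. In complex III, Uqcr11 had 445 bases and Uqcrh 547. The part of length in the differences between complexes was not tested. Across the 47 members with a length, the log2 fold change of batch 2 over batch 1 and log length had a Pearson r of 0.624 and a Spearman rho of 0.56. Across 6519 tested genes with a length the values were 0.474 and 0.493. These are correlations across genes that share the same libraries, and genes are not independent replicates. Below 600 bases, 11 of 14 members were called lower (78.6%), against 46 of 61 other genes (75.4%). From 600 to under 1000 bases it was 13 of 17 members (76.5%) against 107 of 258 other genes (41.5%), and from 1000 to under 2000 bases 6 of 11 members (54.5%) against 149 of 1277 other genes (11.7%). From 2000 to under 4000 bases 1 of 5 members was called, Atp5f1a, against 2.89% of other genes. Without the cytosolic ribosomal protein genes, the other genes' shares were 66.7, 35.7, 10.9 and 2.78% from the shortest class to the longest. Members and other short transcripts thus lay close together below 600 bases, and the members' shares were higher in the classes above it, a difference that was not tested. The part of transcript length, RNA quality or library chemistry in the batch shift was not tested.

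**Figure D3:**
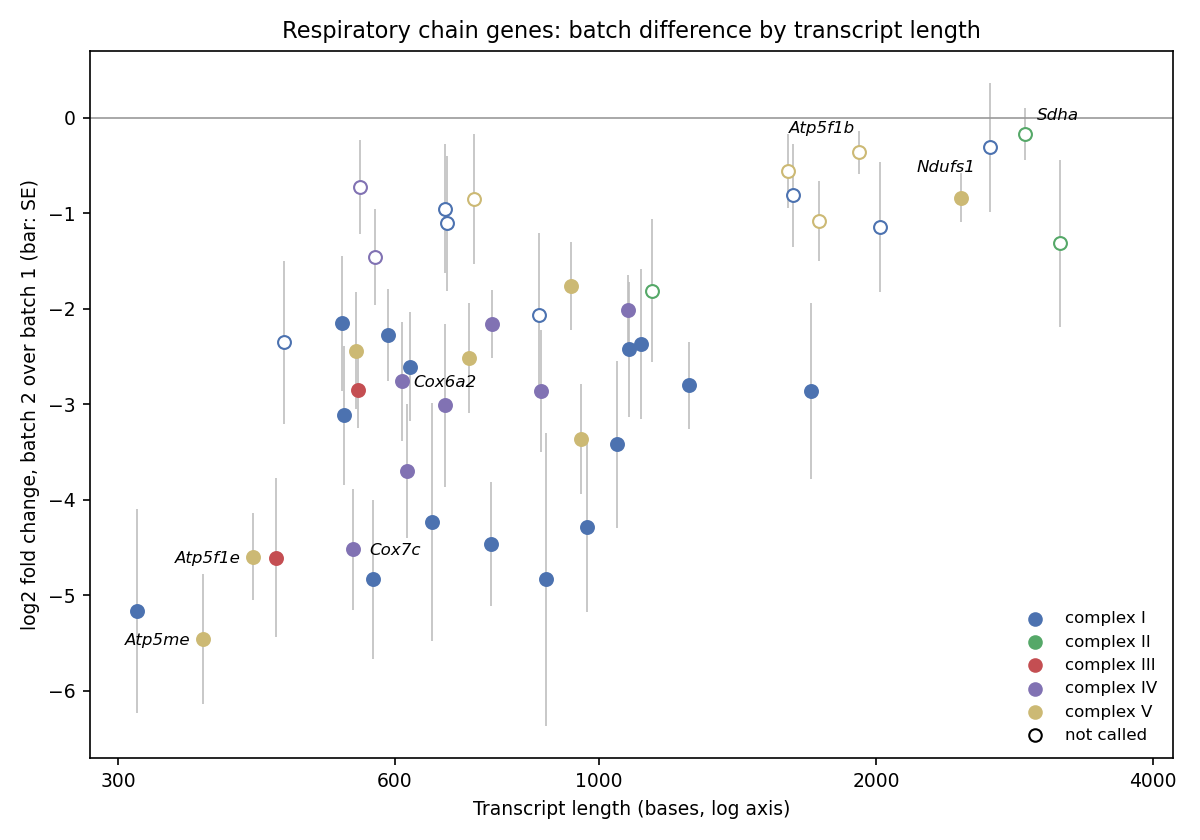
Log2 fold change of batch 2 over batch 1 against transcript length in bases (log axis) for the 47 members with a length, coloured by complex, with bars for SE and filled points for members called lower. The points rise to the right, with Atp5me at -5.46 among the shortest and Sdha at -0.17 among the longest.

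Set per length, the order of the members changed with batch. As CPM per kilobase of transcript, Atp5f1e ranked 16 of 47 in batch 2 (87.6) and 1 of 47 in batch 1 (1359). Uqcrh ranked 7 in batch 2 (171) and 2 in batch 1 (1009). Atp5f1b, in contrast, ranked 1 in batch 2 (646) and 5 in batch 1 (615), and Sdha ranked 3 in batch 2 (242) and 27 in batch 1 (200). Levels pooled over the batches mix these orders. Over all libraries the members ran from 16.9 CPM per kilobase (Sdhc) to 723 (Atp5f1e).

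Genes that work with the chain were counted in the same way, beside the 6.99% of all genes tested that were called lower. Of the assembly factors, 4 of 35 tested were lower in batch 2, with Cox14, a small complex IV assembly factor, at a log2 fold change of -3.98 ± 0.818 (edgeR adjusted p = 0.000412). Of the electron carriers and further nuclear subunits 1 of 13 was lower, of the regulators of mitochondrial biogenesis 1 of 9 (Slirp, a small RNA-binding protein of mitochondrial transcripts, -6.32 ± 1.08, adjusted p = 1.57e-05), and of tricarboxylic acid cycle enzymes 1 of 8 (Mdh2, malate dehydrogenase, -1.56 ± 0.461, adjusted p = 0.0222). None of 9 glycolysis genes was called. All 54 tested cytosolic ribosomal protein genes were lower, with a median of -2.66, as were 6 of 44 mitochondrial ribosomal protein genes (-1.67) and 4 of 28 proteasome genes (-1.15). Apart from those of the cytosolic ribosomal protein genes, these counts were small and are not read as results about the lists. The differences between these shares and that of the module were not tested. Cytosolic ribosomal protein genes took 3.40% of counts in batch 2 and 11.2% in batch 1.

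Promoters were searched because many respiratory chain genes are known targets of NRF1 and of ETS-family factors such as GABP (NRF-2), and Atp5f1e and Atp5me did not overlap between batches. RefSeq promoters (the 250 bases before the start, GRCm38.p6) were at hand for 43 of the 52 members. On both strands, the NRF1 letters GCGCATGCG occurred in a promoter of 5 of 43 members (11.6%). They occurred in 1.64% of 27025 genes with a promoter and in 3.60% of the tested genes with one. The ETS letters CCGGAAG occurred in 9 of 43 (20.9%), against 7.83% of all genes with a promoter and 17.8% of the tested ones. The YY1 letters AAGATGGC occurred in 0 of 43, against 1.83% of all genes with a promoter and 2.47% of the tested ones. With 43 members, 0 matches cannot be told from shares this low, and bases after the start were not searched. CCGGAAG and AAGATGGC share the letters AAG and could overlap, and so could NRF1 matches on opposite strands. A match describes the sequence only. The 250 bases before the start of these 3 members follow, 5′ to 3′ on the gene's strand, with matches in capitals. The match is ETS in Atp5f1e, NRF1 in Atp5me, and both in Cox6a1, the widely expressed partner of the gene described last. Of the 5 members whose batches did not overlap, Cox6b1 also had an ETS match, and Cox7c and Ndufb3 had no match. Any link of matches to the batch shift was not tested.
Atp5f1e, chr2:174464102-174464351, minus strand: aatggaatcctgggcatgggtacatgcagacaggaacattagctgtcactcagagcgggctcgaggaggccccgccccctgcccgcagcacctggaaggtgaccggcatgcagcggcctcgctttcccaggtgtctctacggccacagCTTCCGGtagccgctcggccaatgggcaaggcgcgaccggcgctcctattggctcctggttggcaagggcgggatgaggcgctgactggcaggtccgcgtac
Atp5me, chr5:108434400-108434649, minus strand: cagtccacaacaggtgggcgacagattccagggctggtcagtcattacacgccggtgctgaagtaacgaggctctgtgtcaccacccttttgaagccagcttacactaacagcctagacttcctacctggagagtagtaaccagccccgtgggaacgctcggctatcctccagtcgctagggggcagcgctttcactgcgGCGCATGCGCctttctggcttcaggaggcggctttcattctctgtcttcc
Cox6a1, chr5:115348959-115349208, minus strand: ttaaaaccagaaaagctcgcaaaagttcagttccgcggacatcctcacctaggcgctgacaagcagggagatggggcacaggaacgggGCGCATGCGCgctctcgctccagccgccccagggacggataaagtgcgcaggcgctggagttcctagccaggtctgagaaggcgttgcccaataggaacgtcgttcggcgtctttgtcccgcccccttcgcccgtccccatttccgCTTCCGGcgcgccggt

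Between SCAP cKO and WT, 0 members passed the threshold in each population and on average (edgeR quasi-likelihood test with Benjamini-Hochberg adjustment). The background was equally low, with 0% of genes called in lung CCR6+CD69+, 0% in lung CCR6-CD69- and 0% in circulating cells, and 0.118% in the average over populations. At an unadjusted p under 0.05 there were 0, 1, 7 and 4 members in these comparisons, against 2.29, 7.32, 10.2 and 7.41% of all genes. DESeq2 called 0, 0, 2 and 0 members (0.244, 1.07, 3.43 and 1.48% of its genes), and limma voom 0 in each (0% of all genes). The 2 members called by DESeq2, both in circulating cells, were Ndufa10 and Ndufb6, accessory subunits of complex I. The median log2 fold change of SCAP cKO over WT was -0.03 for the members and 0.04 for all genes in lung CCR6+CD69+ cells. It was -0.14 for members and -0.31 for all genes in lung CCR6-CD69- cells (0.39 and 0.12 without the 2 libraries under 500000 counts), 0.35 and 0.16 in circulating cells, and 0.06 and -0.06 on average. With total counts the average over populations was -0.10 for the members and -0.23 for all genes.

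Single members gave larger differences, none past the threshold. Atp5f1b, the catalytic beta subunit of ATP synthase, lay at 1296, 1429, 1375 and 1326 CPM in SCAP cKO lung CCR6+CD69+ libraries, against 953, 998, 909 and 1144 CPM in WT (batch 2 replicates 3 and 4, then batch 1 replicates 1 and 2, as in all lists of 4 values here). The 4 SCAP cKO libraries were all above the 4 WT libraries. Peripheral stalk gene Atp5pb, named after its values were seen, lay at 200.331, 176, 132 and 177 CPM in SCAP cKO and at 333, 208, 379 and 275 CPM in WT, all of them lower in SCAP cKO. These 2 of 52 members were the only ones whose libraries did not overlap between genotypes in lung CCR6+CD69+ cells. Their share was close to that of all genes (3.57%), so the count is not read as a result about the members. Averaged over the populations, Atp5f1b had a log2 fold change of 0.58 ± 0.225 (edgeR, adjusted p = 0.458), with an estimate above 0 in each population (0.54, 0.51 and 0.67). Leaving out 1 library at a time gave 0.41 to 0.67.

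In circulating cells the complex I gene Ndufa13 lay at 57.5, 252, 715 and 180 CPM in SCAP cKO libraries, against 32.8, 48.5, 164 and 135 CPM in WT. The log2 fold change was 2.01 ± 0.758 (edgeR, adjusted p = 0.419). The groups overlapped over all libraries, and within each batch both SCAP cKO libraries were above both WT libraries. The hinge gene Uqcrh had 30.2, 205, 1071 and 873 CPM in SCAP cKO, against 135, 17.7, 259 and 196 CPM in WT (1.66 ± 0.675, adjusted p = 0.419). Batch 1 carried the difference in Uqcrh, with both SCAP cKO libraries above both WT libraries, and batch 2 did not. Ndufa10 had 3.69, 0, 14.8 and 25.1 CPM in SCAP cKO, against 68.5, 117, 32.3 and 151 CPM in WT (-2.87 ± 1.22, adjusted p = 0.426). It was the only member without overlap between genotypes in circulating cells. This share, 1 of 52, was below the 2.4% of all genes. In lung CCR6-CD69- cells the genotypes overlapped for every member (0 of 52 apart, against 5.35% of all genes). Ndufb2 there had a log2 fold change of 3.22 ± 1.36 (adjusted p = 0.61) that rested on 1 shallow library. SCAP cKO replicate 4 had 798 CPM from 103 counts, and without that library the estimate was -0.40.

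By complex, the summed levels of SCAP cKO and WT overlapped over all libraries in every population. Within batches they were apart in the same direction once, for complex I in lung CCR6+CD69+ cells. It took 0.0798 and 0.0778% in SCAP cKO and 0.107 and 0.0885% in WT in batch 2, and 0.278 and 0.270% in SCAP cKO and 0.335 and 0.302% in WT in batch 1. The ratio of SCAP cKO to WT was 0.807 in batch 2, 0.860 in batch 1 and 0.847 over both. Member by member, 17 of 23 complex I estimates were below 0 in batch 2 (median -0.53) and 12 of 24 in batch 1 (median 0.02). In batch 1, Ndufb1 made up 47.1% of the summed difference, with 142 and 54.8 CPM in SCAP cKO and 379 and 239 CPM in WT. With 2 libraries against 2 in a batch, groups that do not differ are often apart, and no test was made. Whole-module ratios of SCAP cKO to WT were 0.966 in lung CCR6+CD69+, 1.12 in lung CCR6-CD69- and 1.118 in circulating cells. Of 51 members with an estimate in both batches, 28 had opposite signs in batch 2 and batch 1 in lung CCR6+CD69+ cells and 32 in lung CCR6-CD69- cells, and in circulating cells 23 did. No member passed the threshold in the test of whether the genotype effect in lung CCR6+CD69+ cells differed from that in lung CCR6-CD69- or in circulating cells (edgeR interaction, 0 called of 52 in both, 0% of all genes; unadjusted p under 0.05 in 0 and 2 members, against 3.47 and 5.41% of all genes; DESeq2 0 and 0, 0.223 and 0.723% of its genes).

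**Figure D4:**
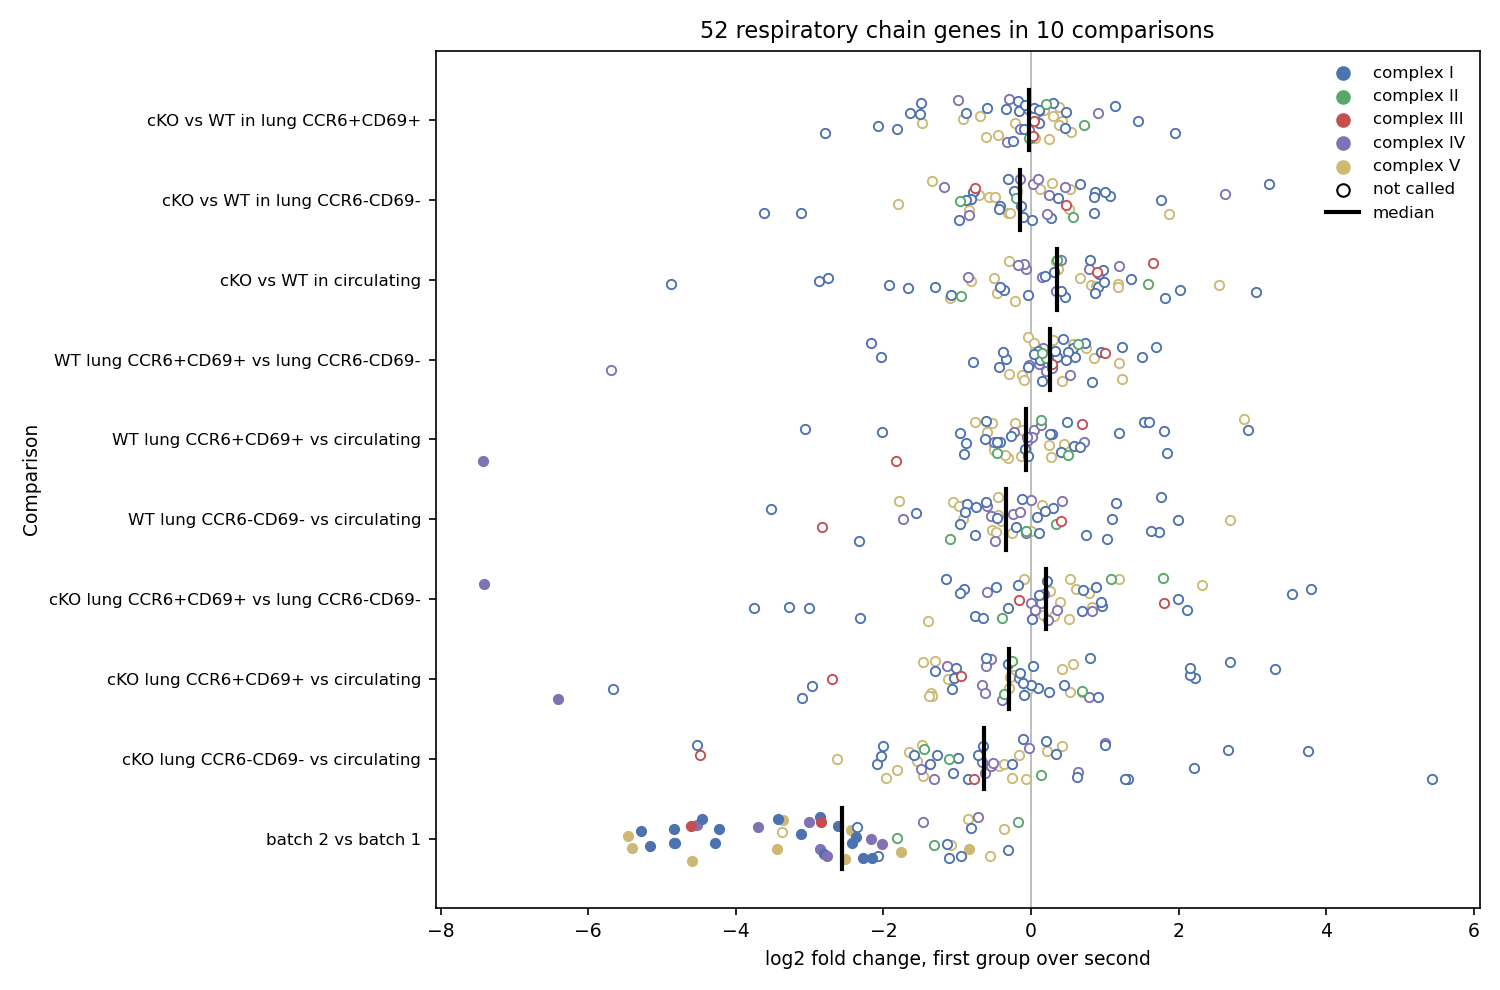
Log2 fold change of every tested member in the comparisons within populations, between populations and between batches, coloured by complex, with filled points for called members and a bar at the members' median. Apart from the batch comparison, with its median of -2.57, the filled points are all Cox6a2, between -7.43 and -6.41.

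Between populations 1 member was called, Cox6a2, the heart and muscle isoform of complex IV subunit 6A. It was lower in lung CCR6+CD69+ cells than in the populations beside them. In WT against circulating cells the log2 fold change was -7.43 ± 1.70 (edgeR quasi-likelihood test, Benjamini-Hochberg adjusted p = 0.00812; 1 of 52 members called, 1.18% of all genes). In SCAP cKO it was -6.41 ± 1.62 against circulating cells (adjusted p = 0.0174; 1.53% of all genes called) and -7.41 ± 1.71 against lung CCR6-CD69- cells (adjusted p = 0.0196; 0.457% of all genes called). In WT against lung CCR6-CD69- cells the estimate was -5.69 ± 1.57, with an adjusted p of 0.141 and 0 members called (0.295% of all genes). At an unadjusted p under 0.05 there was 1 member, against 3.33% of all genes, and DESeq2 and voom called 1 each (0.85 and 2.29% of genes). Lung CCR6-CD69- cells against circulating cells gave estimates of 1.00 in SCAP cKO and -1.74 in WT, with 0 members called (0.31 and 0.162% of all genes). At an unadjusted p under 0.05 there were 9 and 3 members, against 14.2 and 8.63% of all genes, and DESeq2 called 4 and 0 (5.95 and 2.04% of genes) and voom 0 and 0 (0.177 and 0.561%). In the comparisons where edgeR called Cox6a2 alone, DESeq2 called 1 member in WT (3.79% of genes), 5 in SCAP cKO against circulating cells (6.12%) and 3 in SCAP cKO against lung CCR6-CD69- cells (4.21%), and voom called 1, 2 and 1 (4.2, 2.12 and 0.605%).

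Library by library, Cox6a2 lay at 0, 0, 3.28 and 2.87 CPM in SCAP cKO and at 0, 0, 1.17 and 2.22 CPM in WT lung CCR6+CD69+ cells. In lung CCR6-CD69- cells it lay at 203, 0, 59.7 and 196 CPM in SCAP cKO and at 4.44, 8.80, 79.3 and 98.5 CPM in WT. In circulating cells it lay at 0, 57.8, 179 and 101 CPM in SCAP cKO and at 93.3, 0, 138 and 92.5 CPM in WT. All 8 lung CCR6+CD69+ libraries were thus at or below 3.28 CPM, while 3 of the 16 others had no count. Pooled, there were 22 counts in 12123779 (1.82 CPM) in SCAP cKO and 22 in 20180889 (1.09 CPM) in WT lung CCR6+CD69+ cells. The other groups pooled to 120 and 45.2 CPM in SCAP cKO and WT lung CCR6-CD69- cells and to 87.3 and 77.9 CPM in SCAP cKO and WT circulating cells. Within batch 1 the 4 lung CCR6+CD69+ libraries were all below the 8 others. In batch 2 all 4 had no count, and so did 3 of the 8 others, while the other 5 lay between 4.44 and 203 CPM. Cox6a2 was itself lower in batch 2 than in batch 1 (-3.01 ± 0.856, edgeR adjusted p = 0.0158).

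The calls for Cox6a2 depended on single libraries and on the fit, although the direction did not. For WT lung CCR6+CD69+ against circulating cells, the adjusted p was 0.0592 without WT CCR6+CD69+ replicate 4, 0.0514 without replicate 1 of that group and 0.0614 without WT circulating replicate 3, with log2 fold changes of -7.99 to -5.92 over all fits that left out 1 library. For SCAP cKO lung CCR6+CD69+ against lung CCR6-CD69- cells, it was 0.127, 0.0989, 0.0813 and 0.0996 without SCAP cKO CCR6+CD69+ replicates 3, 4, 1 and 2, and 0.122 without SCAP cKO CCR6-CD69- replicate 3 (-7.94 to -5.41). For SCAP cKO lung CCR6+CD69+ against circulating cells, it was 0.0921, 0.0939, 0.0624 and 0.0761 without SCAP cKO CCR6+CD69+ replicates 3, 4, 1 and 2 (-6.85 to -5.86). In batch 1 alone the 3 adjusted p-values were 0.0577, 0.225 and 0.0757, and in batch 2 alone 0.849, 0.276 and 0.337. Without the 2 libraries highest in the macrophage gene Chil3, a setting chosen after seeing the data, the adjusted p was 0.00937, 0.0166 and 0.02. With no batch term it was 0.131, 0.251 and 0.128. With a replicate block it was 0.0229, 0.0618 and 0.0146, and with one by genotype and number 0.0313, 0.0766 and 0.0189. In fits of only the groups compared, Cox6a2 did not pass the filter on low counts in these 3 comparisons and was not tested.

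**Figure D5:**
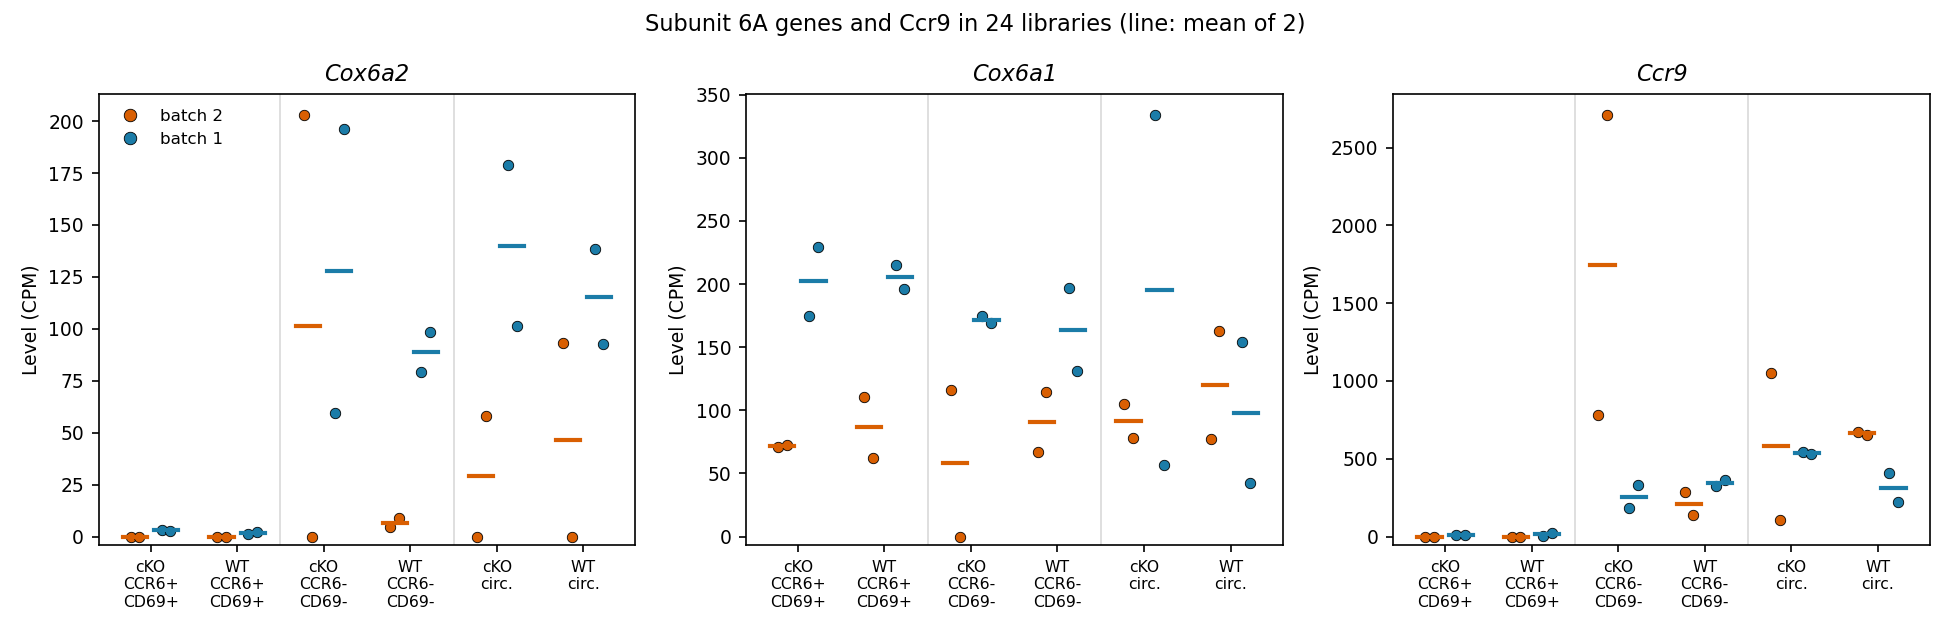
CPM of Cox6a2 and Cox6a1, the isoforms of complex IV subunit 6A, and of Ccr9 in each library by group, coloured by batch, with a line at the mean of the 2 libraries. Cox6a2 is at or below 3.28 CPM in the 8 lung CCR6+CD69+ libraries, where Ccr9 is also near 0 and Cox6a1 is not.

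Cox6a1, the widely expressed isoform, did not follow that pattern. Its mean level was 137 CPM in SCAP cKO and 146 CPM in WT lung CCR6+CD69+ cells, 115 CPM in SCAP cKO and 127 CPM in WT lung CCR6-CD69- cells, and 143 CPM in SCAP cKO and 109 CPM in WT circulating cells. Its log2 fold changes between populations were 0.62 or less in size. The coding sequences are shown because reads shared between the isoforms would blur this contrast. By the GENCODE annotation of GRCm38, Cox6a1 lies at chr5:115345642-115348981 and Cox6a2 at chr7:128205435-128206387, both on the minus strand. They have 336 and 291 coding bases, and 190 of 291 aligned bases were identical (65.29%). The longest identical run was 12 bases, printed in capitals. All of the coding sequence of Cox6a2 and the last 291 bases of that of Cox6a1 are given.
Cox6a1: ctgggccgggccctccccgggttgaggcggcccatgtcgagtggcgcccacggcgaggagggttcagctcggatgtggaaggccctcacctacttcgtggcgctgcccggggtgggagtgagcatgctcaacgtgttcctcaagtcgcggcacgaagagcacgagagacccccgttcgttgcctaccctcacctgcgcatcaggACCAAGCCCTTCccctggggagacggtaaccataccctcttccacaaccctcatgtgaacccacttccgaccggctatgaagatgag
Cox6a2: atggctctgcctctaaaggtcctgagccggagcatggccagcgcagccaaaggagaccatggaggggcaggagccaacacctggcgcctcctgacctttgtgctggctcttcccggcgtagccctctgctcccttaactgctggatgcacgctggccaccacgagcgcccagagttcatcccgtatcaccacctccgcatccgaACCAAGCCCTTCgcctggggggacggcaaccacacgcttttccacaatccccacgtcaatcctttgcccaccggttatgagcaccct

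Cox6a2 is also known as a gene of plasmacytoid dendritic cells, and it was on the list of their markers together with Ccr9, Tcf4, Pltp and Lifr, while the other markers listed were not analysed here. The chemokine receptor gene Ccr9 averaged 4.07 CPM in SCAP cKO and 6.66 CPM in WT lung CCR6+CD69+ cells, 1002 and 279 CPM in SCAP cKO and WT lung CCR6-CD69- cells, and 560 and 489 CPM in SCAP cKO and WT circulating cells. Lifr averaged 4.77 and 4.95 CPM, 91.5 and 103 CPM, and 339 and 362 CPM in the same order. In lung CCR6+CD69+ cells both genes were thus near 0, as Cox6a2 was. This did not hold library by library elsewhere. Cox6a2 had no count in SCAP cKO CCR6-CD69- replicate 4, SCAP cKO circulating replicate 3 and WT circulating replicate 4. In that order, Ccr9 lay there at 2713, 1054 and 654 CPM, and Lifr at 7.75, 606 and 263 CPM. Tcf4, which B cells also express, averaged 992 and 1142 CPM in SCAP cKO and WT lung CCR6+CD69+ cells, so not every listed marker was absent there. Together these 4 markers summed to 502 to 1493 CPM in SCAP cKO and 767 to 1476 CPM in WT lung CCR6+CD69+ libraries, to 1086 to 3216 and 1108 to 1779 CPM in SCAP cKO and WT lung CCR6-CD69- libraries, and to 2081 to 3644 and 1909 to 2880 CPM in SCAP cKO and WT circulating libraries. With Cox6a2 counted, 4 of 5 were called lower in lung CCR6+CD69+ than in circulating cells in each genotype. Of all genes, 1.46% were called lower there in SCAP cKO and 1.02% in WT. Against lung CCR6-CD69- cells it was 3 of 5 in SCAP cKO and 2 of 5 in WT (0.457 and 0.295% of all genes). The list was chosen with earlier results of these data known, so these counts are a description only. The part of such cells in the Cox6a2 result was not tested.

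No other member passed the edgeR threshold between populations in the fit of all 24 libraries. With no filter or in batch 1 alone edgeR called 2 more, named here after their values were seen. Members called in fits that left out 1 library are not counted in these 2. Ndufb1, an accessory complex I subunit, lay at 0, 4.62, 142 and 54.8 CPM in SCAP cKO lung CCR6+CD69+ cells and at 0, 0, 1058 and 1086 CPM in SCAP cKO circulating cells. Its log2 fold change was -3.11 ± 1.498 (edgeR adjusted p = 0.394) over both batches and -3.51 in batch 1 alone (adjusted p = 0.00818; 0.757% of all genes called). With no filter it was called in this comparison (adjusted p = 0.0348; 1.47% of all genes) and against lung CCR6-CD69- cells (0.0317; 0.893%). Ndufb2 was called higher with no filter in SCAP cKO lung CCR6-CD69- than in circulating cells (0.00626; 1.07%), where the shallowest library had 798 CPM. The members' median log2 fold change of lung CCR6+CD69+ over lung CCR6-CD69- cells was 0.20 in SCAP cKO and 0.26 in WT, against 0.26 and -0.02 for all genes. In WT, 39 of 52 estimates were above 0 (75.0%), against 48.3% of all genes, and 27 of 51 were above 0 in both batches. Fitted on a single batch, the WT median was 0.24 for batch 2 and 0.27 for batch 1. In the same comparison 50 of 54 cytosolic ribosomal protein genes had estimates above 0, and 7 of 7 macrophage and 5 of 5 T cell genes below 0, with none called. Macrophage genes took between 0.0425 and 0.340% of counts per library in WT lung CCR6+CD69+ cells, against 0.101 to 3.59% in WT lung CCR6-CD69- cells. T cell genes took at most 0.0029% in WT lung CCR6+CD69+ cells, against at least 0.0083% in WT lung CCR6-CD69- cells, and the part of these cells in the medians was not tested. Without the 2 libraries highest in Chil3 the members' WT median was 0.18, against -0.07 for all genes. Against circulating cells the medians were -0.29 in SCAP cKO and -0.07 in WT for lung CCR6+CD69+ cells, with -0.01 and 0.09 for all genes. For lung CCR6-CD69- cells they were -0.63 in SCAP cKO and -0.34 in WT, with -0.26 and 0.12 for all genes. Without the 2 libraries under 500000 counts, the SCAP cKO medians were -0.14 for lung CCR6+CD69+ over lung CCR6-CD69- cells and -0.21 for lung CCR6-CD69- over circulating cells, with 0.01 for all genes in both. The comparisons within a genotype share libraries, so these medians are not independent of each other. The 8 natural killer genes analysed here summed to 0.156 to 0.274% of counts in SCAP cKO and 0.126 to 0.319% in WT circulating libraries, against at most 0.0026% in any lung library. In each comparison of a lung population with circulating cells 7 or 8 of the 8 were called lower in lung, and the part of such cells in these medians was not tested.

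Summed by complex, no pair of groups was apart over all libraries in any of 45 comparisons of a complex between 2 groups. Of the 45, 4 were apart in the same direction in both batches. With 2 libraries against 2 in a batch, groups that do not differ are often apart. No share over other gene sets was computed, so the 4 are not read as results about the complexes. In WT, complex V was lower in lung CCR6+CD69+ than in circulating cells (ratio 0.823, with 0.887 in batch 2 and 0.788 in batch 1). It was also lower in WT lung CCR6-CD69- than in circulating cells (0.784, with 0.874 in batch 2 and 0.735 in batch 1). Both comparisons used the same circulating libraries. WT circulating replicate 2, of batch 1, had 356782 counts and a complex V sum of 0.558%, against at most 0.498% in WT lung libraries. Its Atp5me was 866 CPM from 309 counts, against 174 to 249 CPM in the other WT libraries of batch 1. The separation in batch 1 thus rested in part on 1 gene in 1 shallow library. In SCAP cKO, complex I was lower in lung CCR6+CD69+ than in lung CCR6-CD69- cells (0.793, with 0.566 in batch 2 and 0.897 in batch 1). In batch 2 this rested in part on the shallowest library, where Ndufb2 and Ndufs1 made up 97.1% of the complex I sum, and the ratio was 0.654 without it. Member by member, 14 of 23 complex I estimates were above 0 in batch 2 (median 0.52, against 0.94 for all genes) and 9 of 24 in batch 1 (-0.33, against -0.01). The genotype ratio of complex I given above is the remaining 1 of the 4. These are descriptions of libraries and carry no test. None of the assembly factors, electron carriers, tricarboxylic acid cycle, glycolysis or biogenesis genes on the lists was called in any comparison of genotype or population.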

How the data were processed

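The deposited table holds raw counts, 1 row per gene symbol and 1 column per library. Per the submitters' processing notes, the build was mm39 and FastQC, STAR and Salmon were used. The tool that made the counts is not given in the sources used here. Per the labels' protocols, extraction used Zymo Quick-RNA Microprep and library preparation the xGen Broad-range kit in a low-input form.

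Counts from all 24 libraries entered 1 fit in R 4.3.3 with edgeR 4.0.16 (TMM scaling, filterByExpr, robust quasi-likelihood test, terms for group and batch), which was tested on simulated data. P-values were adjusted by the Benjamini-Hochberg method over the 6779 genes tested, with a threshold of 0.05. Levels are counts scaled to a library total of 1000000 (CPM) and, between genes, CPM per kilobase of transcript. Alternatives used DESeq2 1.42.0, limma 3.58.1, other scalings and filters, each batch alone, replicate blocks and the omission of libraries. The fits without the 2 libraries highest in Chil3 and the means without the shallowest library were chosen after seeing the data. Promoters came from RefSeq (GRCm38.p6) and coding sequences and lengths from annotations of GRCm38, matched by symbol, so no coordinate of the authors' build was used.

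Members and gene lists were chosen with earlier results of these data known. Genes were named by rule: members past the threshold, up to 25 per comparison by smallest p, the member of each complex with the smallest p (only where its unadjusted p was under 0.05), the 2 members of each complex with the highest mean CPM, the isoform families, and of the other lists the gene with the smallest p. Values of 1 member are not reported here. No 2 libraries were identical.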

Additional observations from a re-analysis of the deposited data

Results flagged for a closer look

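Among 270 sets of 4 libraries examined, 24 (8.89%) held a library far from the other 3, where chance gives about 1 in 20 for exchangeable libraries. Each set held 2 libraries of each batch, which differ for most members, so this share cannot be read against that rate. Values are CPM, with the nearest other library of the group after each, and no explanation was tested. SCAP cKO circulating replicate 1 was the highest of its group for Ndufb4 (351.3, next 34.46), Ndufb7 (718.4, next 115.9), Ndufs4 (373.7, next 27.15) and Uqcr11 (407.7, next 64.03). In SCAP cKO circulating replicate 2, Ndufs3 (101.3, next 15.89) and Ndufs5 (721.6, next 52.09) were the highest. In SCAP cKO CCR6-CD69- replicate 2, Ndufa5 (12.21, next 0.8619), Ndufb4 (414.8, next 36.84) and Ndufs4 (191.6, next 21.33) were the highest, and in replicate 1 of that group Ndufb7 was (172.8, next 29.06). The shallowest library, SCAP cKO CCR6-CD69- replicate 4, had the highest Sdha of its group (1170, next 663.3). In SCAP cKO CCR6+CD69+ replicate 2, Ndufb5 (180.5, next 40.49) and Ndufc1 (27.26, next 4.269) stood out.

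Among WT libraries, circulating replicate 1 had the highest Atp5f1a (2300, next 1333) and Ndufs6 (346.9, next 47.03). Circulating replicate 2 had the highest Atp5if1 (78.48, next 7.071), Atp5mj (171, next 20.34) and Ndufb4b (42.04, next 4.861), while circulating replicate 3 had the lowest Atp5f1d (56.36, next 204.6). WT CCR6-CD69- replicate 2 had the highest Ndufb4b (42.64, next 2.514) and Uqcr11 (102.9, next 8.289), and replicate 1 of that group the highest Ndufb4 (178.5, next 39.31). WT CCR6+CD69+ replicate 2 had the highest Ndufb4b (12.56, next 0.7004). Summed complex II was highest in WT CCR6+CD69+ replicate 1, at 0.1009% of counts, with 0.0795% in the next library. Apart from that of Sdha, every one of these highest values came from a batch 1 library.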

How the results depend on the processing

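The batch comparison kept its direction in every alternative run, with 27 members called with total counts as scaling, 33 with RLE scaling, 37 with TMM without ribosomal genes, 36 with no filter, 35 with a stricter one, 40 with DESeq2, 43 with voom and 30 to 37 with 1 library left out. In the genotype comparisons, DESeq2 called 2 members in circulating cells. For WT lung CCR6+CD69+ against lung CCR6-CD69- cells, 1 member was called with no filter, only the groups compared, DESeq2 or voom. For WT lung CCR6+CD69+ against circulating cells, 0 were called with no batch term, either batch alone or only the groups compared, and 0 to 1 with 1 library left out. For SCAP cKO lung CCR6+CD69+ against lung CCR6-CD69- cells, 2 were called with no filter, 3 with DESeq2, 0 with no batch term, either batch alone or only the groups compared, and 0 to 1 with 1 library left out. For SCAP cKO lung CCR6+CD69+ against circulating cells, 2 were called with no filter or voom, 5 with DESeq2, 0 with no batch term, batch 2 alone or only the groups compared, and 0 to 2 with 1 library left out. For SCAP cKO lung CCR6-CD69- against circulating cells, 1 was called with no filter and 4 with DESeq2. The cause of these changes was not tested, except that single batches and single pairs of groups hold fewer libraries, and that Cox6a2 did not pass the filter in the 3 fits of only the groups compared with 0 calls.

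Ndufb2 changed sign. For SCAP cKO against WT in lung CCR6-CD69- cells its log2 fold change was 3.22, against -0.11 without the 2 libraries under 500000 counts, -0.019 with voom and -0.401 without SCAP cKO CCR6-CD69- replicate 4, and -0.401 to 3.824 with any 1 library left out. For SCAP cKO lung CCR6+CD69+ against lung CCR6-CD69- cells it was -3.29, against 0.023 without the 2 libraries, 0.19 without that replicate and -3.874 to 0.19 with any 1 library left out.

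The labels do not say whether replicate numbers pair the samples. Same-numbered libraries had correlations of -0.031 to 0.086 once group and batch means were taken out. With 2 libraries per group and batch, these values cannot decide whether the samples were paired. With the replicate block, 0 members were called for SCAP cKO lung CCR6+CD69+ against lung CCR6-CD69- cells, with a block by number and with one by genotype and number, and no other count of members called changed by over 1.5 times. Over all genes, the block by number gave 1 call, against 8, for SCAP cKO over WT on average, 12 against 21 for SCAP cKO and 7 against 11 for WT lung CCR6-CD69- over circulating cells, and 13 against 20 for WT lung CCR6+CD69+ over lung CCR6-CD69- cells. The block by genotype and number gave 20 against 31 for SCAP cKO lung CCR6+CD69+ over lung CCR6-CD69- cells and 13 against 20 in WT. With 129025 counts in the shallowest library, a member under 23.3 CPM could not be told from 0 there.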
